A study of Mus musculus with 4 samples.

Results

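The 10 imprinted genes described here lie outside the Dlk1-Dio3 region and were measured in mouse embryonic stem cells that lack Prdm14. They were chosen by symbol in the platform annotation, with 5 paternally expressed genes (Plagl1, Mest, Peg3, Peg10 and Impact) and 5 maternally expressed genes (H19, Igf2r, Grb10, Cdkn1c and Phlda2). These symbols picked 12 of the 41345 probe sets, and 9 of the 10 genes had a probe set annotated to no other gene, out of 22180 such genes in all. Of the 9, 8 passed the filter on dim genes, a log2 value of at least 4.84 on 1 or more arrays, as did 12042 genes in all, which are the compared genes below. All 8 were above it on each of the 4 arrays, so none passed through 1 group alone.

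Total RNA was hybridised to GeneAtlas arrays of strip 2, and each of the 4 groups had a single array. All cells carried the Prdm14 knockout, were grown in medium with 2 inhibitors and LIF, and shared the dish with STO feeder cells, a mouse fibroblast line. The groups differed in what was expressed in the knockout: nothing (empty vector), the mouse PRDM14 protein, the sea urchin one, or the sea urchin one along with sea urchin CBFA2T, of a corepressor family that PRDM14 binds. The last group is called both sea urchin proteins below and PRDM14+CBFA2T in the plots. Neither the number of clones nor the promoter of the vector was given in the sources used here. Each group has 1 array, so there is no replicate error, no test was made and every difference below is between single arrays.

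Genomic imprinting restricts expression of a gene to the copy inherited from one parent, through DNA methylation that is set in the germ line and kept after fertilisation. PRDM14, which acts in naive pluripotent cells and in the germ line, is known to restrain de novo DNA methyltransferase genes and FGF signalling. Several paternally expressed genes have their germline methylation mark at the promoter, methylated on the maternal copy. The arrays measure RNA from both copies together, so they show neither the parental origin of the RNA nor the methylation of a mark.

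The promoters of Plagl1, Mest and Peg3 are shown because these 3 genes carry such a mark at or near a promoter and Plagl1 has the largest difference below. The sequences are from RefSeq, GRCm38.p6, and run up to the annotated start (for Mest the first of its internal starts, for Peg3 up to the outermost end of the gene), 5′ to 3′ on the gene's strand. Capitals mark TGCCGC, the hexamer that the imprint-maintaining zinc finger protein ZFP57 binds when methylated, or its reverse complement GCGGCA. RefSeq promoters were found for 6 of the 10 genes, and the other genes were Cdkn1c, H19, Impact and Peg10.
Plagl1 (chr10:13090582-13090831, + strand): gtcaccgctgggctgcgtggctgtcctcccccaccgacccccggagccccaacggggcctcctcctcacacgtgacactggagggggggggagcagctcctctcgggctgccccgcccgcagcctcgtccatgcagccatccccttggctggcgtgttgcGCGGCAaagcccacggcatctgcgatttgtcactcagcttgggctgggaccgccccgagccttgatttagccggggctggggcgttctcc
Mest (chr6:30737800-30738049, + strand): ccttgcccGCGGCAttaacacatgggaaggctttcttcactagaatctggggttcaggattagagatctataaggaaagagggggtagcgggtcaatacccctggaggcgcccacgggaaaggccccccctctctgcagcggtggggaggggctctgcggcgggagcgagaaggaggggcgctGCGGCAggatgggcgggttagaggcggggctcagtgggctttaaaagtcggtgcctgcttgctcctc
Peg3 (chr7:6730463-6730669, - strand): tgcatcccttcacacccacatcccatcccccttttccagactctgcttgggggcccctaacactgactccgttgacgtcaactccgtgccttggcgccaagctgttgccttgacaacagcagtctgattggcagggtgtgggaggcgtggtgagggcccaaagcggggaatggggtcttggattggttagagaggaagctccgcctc

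The Plagl1 window of 250 bases held 1 match and 19 CpG dinucleotides, and the Mest window 2 matches and 14 CpG. All 3 matches were GCGGCA on the strand shown. Among 32851 RefSeq promoter windows of 250 bases, 8.68% held at least 1 match on either strand and 0.874% held 2 or more. The median number of CpG was 6, and 19.7% of windows held at least as many as Plagl1 and 29.4% as many as Mest. The Peg3 window of 207 bases held 0 matches and 7 CpG. Of windows of that length 6.97% held a match, and the median number of CpG was 4. A further internal Mest start, not shown, also had 2 matches and 14 CpG in its 250 bases. The remaining promoters examined, of Grb10 (2 starts), Igf2r, Phlda2 and the first Mest start, held 0 matches in 250 bases. They held 40 and 8 CpG for Grb10, 27 for Igf2r, 21 for Phlda2 and 7 for the first Mest start. A high CpG count was thus not particular to the promoters shown. A match is a description of letters and does not show binding.

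The Prdm14 probe set lay between 5.53 and 5.77 on the 4 arrays and was no higher with mouse PRDM14 (5.57) than with the empty vector (5.71), so it could not check the labels, and a group name here means the array labelled with it. Of the embryonic stem cell markers, 12 of 12 passed the filter. The fibroblast markers had 23 of 29 measured genes past the filter, where 12042 of all 22180 genes were. Those 23 had a mean log2 level of 6.02 to 6.06 over the arrays. The fibroblast markers Lum, Dcn, Postn, Twist2, Lox and S100a4 were below the filter on all arrays. In such a mixture, fewer cells of a type and less RNA per cell cannot be told apart. The medians of the 4 arrays, which the authors' RMA processing makes equal, lay between 4.54 and 4.55.

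Plagl1 differed most among the 10 genes. It encodes a zinc finger transcription factor that restrains growth and regulates other imprinted genes. It measured 6.04 with the empty vector, 5.81 with mouse PRDM14, 5.18 with sea urchin PRDM14, and 5.22 with both sea urchin proteins. Both sea urchin arrays were thus low, both other arrays were high, and the values of the pairs did not overlap. Against the empty vector the log2 difference was -0.86 with sea urchin PRDM14 (1.82-fold lower) and -0.82 with both sea urchin proteins (1.76-fold lower), while mouse PRDM14 was at -0.23. Against mouse PRDM14 the differences were -0.632 and -0.589, both past the 1.5-fold line of 0.585 and the latter only just. Between the sea urchin arrays the difference was 0.04.

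Few genes on these arrays differed as far. Of all compared genes, 0.0498% were at least as far from the empty vector on the sea urchin PRDM14 array as Plagl1, and 0.316% on the array with both sea urchin proteins. The gap between the higher sea urchin value and the lower of the other values was 0.59 on the log2 scale, and 0.0332% of compared genes had a gap that large in either direction. A different Plagl1 probe set was dim, between 3.96 and 4.08 on all arrays, below the filter value, and its differences from the empty vector were -0.04 and -0.01 on the sea urchin arrays. The probe sets thus differ, and close to background, as for the dim one, array differences can be understated. With the mean of both in place of the brighter one, the Plagl1 difference from the empty vector was -0.45 and -0.41, and from mouse PRDM14 -0.37 and -0.34, all under 1.5-fold.

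Genes next to Plagl1 on chromosome 10 differed by at most 1.11-fold. They were chosen after the values were seen. In the order of the GRCm38.p6 annotation, the nearest compared genes on each side were Stx11, Sf3b5, Ltv1 and Phactr2. Sf3b5, a splicing factor subunit gene, lay between 6.64 and 6.67, and Ltv1, a ribosome biogenesis gene, between 5.10 and 5.14. Stx11 differed by at most 1.11-fold and Phactr2 by at most 1.09-fold between any 2 arrays. The median difference of 593 compared chromosome 10 genes from the empty vector was 0.005 with sea urchin PRDM14 and -0.007 with both sea urchin proteins.

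**Figure D1:**
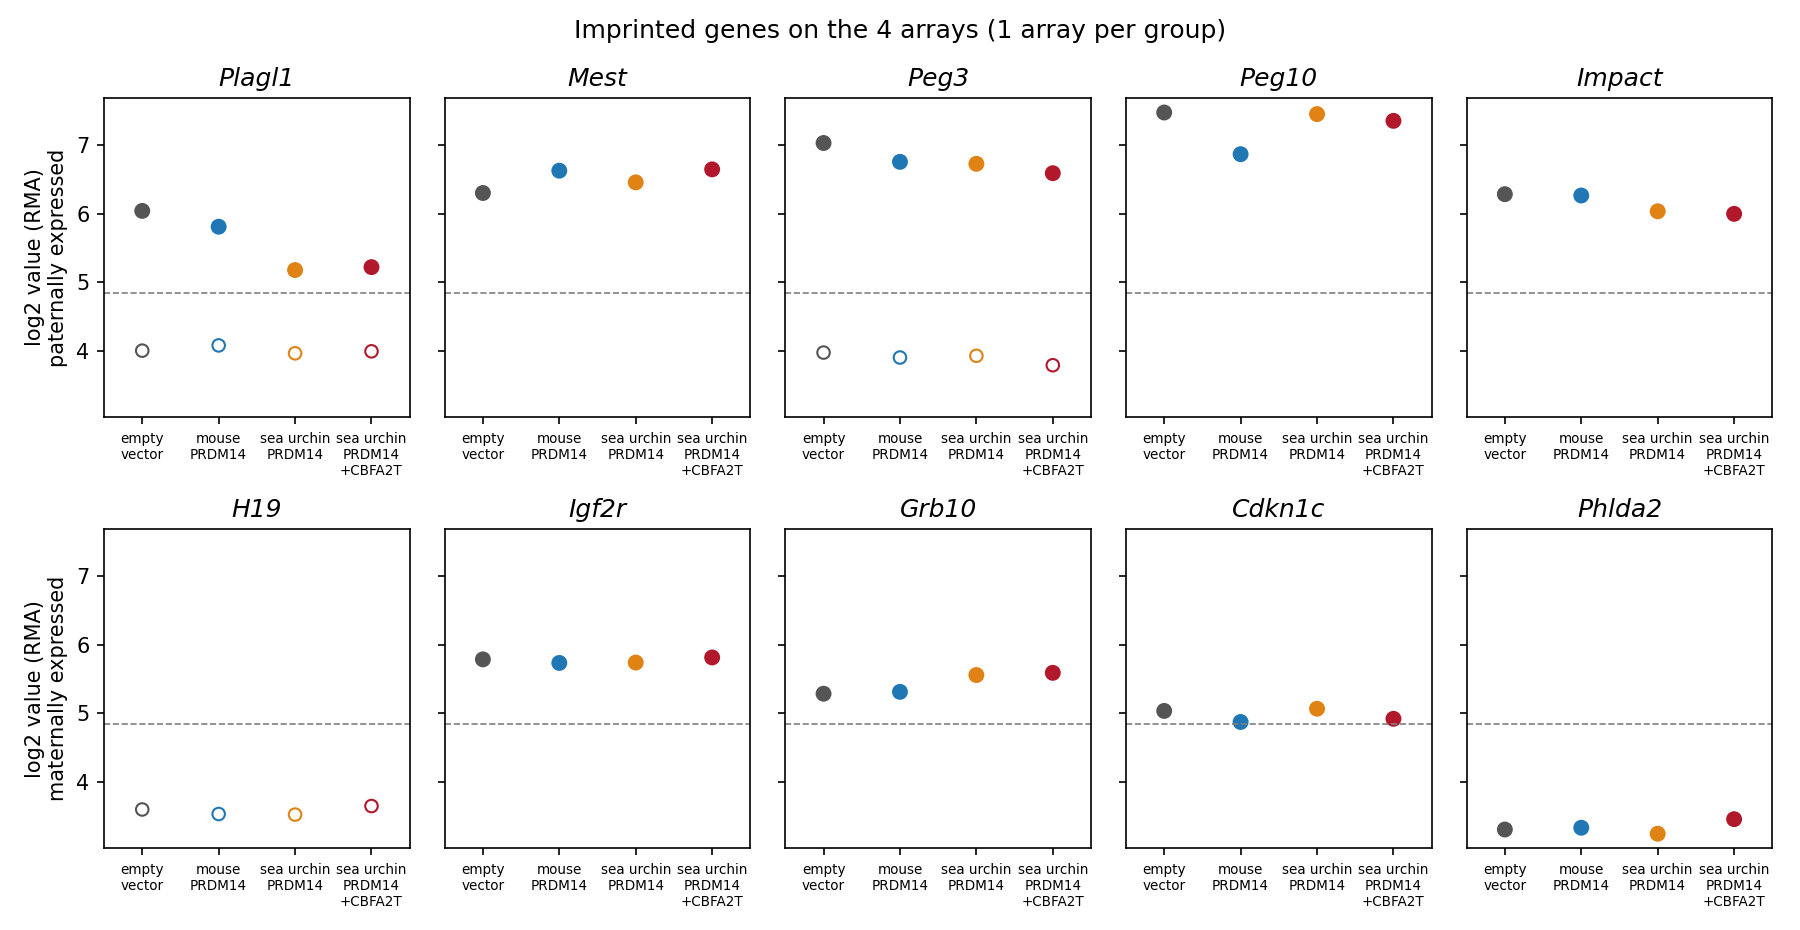
Log2 RMA values (y axis) of the 10 genes on the 4 arrays (x axis), 1 point per array, with paternally expressed genes above and maternally expressed genes below. Filled points are the gene's value, open points a dimmer or shared probe set, and the dashed line the filter value of 4.84. Plagl1 is low on both sea urchin arrays (5.18 and 5.22), Peg10 is low with mouse PRDM14 (6.87), and the H19 and Phlda2 points lie below the line.

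Peg10 was lower on 1 array only, that of mouse PRDM14. It derives from a retrotransposon and is needed for the placenta. The log2 value of this gene was 7.47 with the empty vector, 6.87 with mouse PRDM14, 7.45 with sea urchin PRDM14 and 7.35 with both sea urchin proteins. The 3 high arrays lay within 0.12 of one another, and mouse PRDM14 was 0.49 below the lowest of them. The difference between mouse PRDM14 and the empty vector was -0.61 (1.52-fold lower), and 0.374% of compared genes were at least as far apart there. Sea urchin PRDM14 was 0.584 above mouse PRDM14, just under the 1.5-fold line, and both sea urchin proteins was 0.486 above it.

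Sgce starts beside Peg10, is also paternally expressed and encodes a sarcoglycan. The measured log2 value was 4.67 with the empty vector, 4.43 with mouse PRDM14, 4.56 with sea urchin PRDM14 and 4.42 with both sea urchin proteins, below the filter on all arrays. The mouse PRDM14 array was thus not apart from the array of both sea urchin proteins for Sgce. Of the compared genes around Peg10 on chromosome 6, the collagen gene Col1a2 and Casd1 were a little higher with mouse PRDM14 than with the empty vector (0.20 and 0.11). Ppp1r9a and Slc25a13 were a little lower (-0.11 and -0.06).

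Peg3, a zinc finger gene tied to growth and maternal behaviour, was highest with the empty vector. It measured 7.03 there, 6.75 with mouse PRDM14, 6.72 with sea urchin PRDM14 and 6.59 with both sea urchin proteins. The differences from the empty vector were -0.27, -0.30 and -0.44 in that order, the last 1.36-fold lower, with 2.07% of compared genes at least as far apart. A further probe set, annotated to both Peg3 and Peg3os, was dim at 3.79 to 3.97. The neighbouring imprinted genes Usp29 (3.36 to 3.65) and Zim1 (3.67 to 3.93) were dim on all arrays too.

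Mest, which encodes a protein of the hydrolase fold family, went the opposite way and was lowest with the empty vector. It was at 6.30 there, at 6.62 with mouse PRDM14, at 6.45 with sea urchin PRDM14 and at 6.64 with both sea urchin proteins. The largest difference, 0.34 with both sea urchin proteins, is 1.27-fold, and 5.01% of compared genes were at least as far apart. Copg2, a vesicle coat gene whose RNA overlaps Mest from the opposite strand, was at 5.41 with the empty vector, 5.13 with mouse PRDM14, 5.39 with sea urchin PRDM14 and 5.25 with both sea urchin proteins. Copg2 was highest on the array where Mest was lowest, but sea urchin PRDM14 differed from that array by only -0.02.

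Mest hosts the microRNA gene Mir335, shown because the arrays cover it apart from its host. The Mir335 probe set was dim on all arrays, at 2.75 with the empty vector, 2.68 with mouse PRDM14, 2.60 with sea urchin PRDM14 and 2.60 with both sea urchin proteins. Both sea urchin arrays were the lower ones, within 1.11-fold of the others, an arrangement that 16.6% of all compared genes showed. The mature sequences are from RefSeq, GRCm38.p6, with the seed (bases 2 to 8) in capitals.
mmu-miR-335-5p: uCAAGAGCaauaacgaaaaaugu
mmu-miR-335-3p: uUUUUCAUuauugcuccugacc

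Impact encodes an inhibitor of the amino acid sensing kinase GCN2. The log2 value of this gene was 6.28 with the empty vector, 6.26 with mouse PRDM14, 6.03 with sea urchin PRDM14 and 5.995 with both sea urchin proteins. Both sea urchin arrays were low and did not overlap the others, with a gap of 0.23 that 1.28% of compared genes reached. The differences from the empty vector, -0.25 and -0.29, were within the middle 95% of all compared genes.

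Grb10 was the 1 compared gene of the 10 that was higher on both sea urchin arrays. It encodes an adaptor that restrains insulin and IGF receptor signalling and is maternally expressed outside neurons. The measured log2 value was 5.29 with the empty vector, 5.31 with mouse PRDM14, 5.56 with sea urchin PRDM14 and 5.59 with both sea urchin proteins. The groups did not overlap, with a gap of 0.25 that 1.07% of compared genes reached, and the differences from the empty vector were 0.27 and 0.30. Chromosome 11 genes as a whole were slightly higher on these arrays, with medians of 0.057 and 0.065 over 1069 genes, and whether that bears on Grb10 was not tested. Its neighbour Ddc lay between 5.10 and 5.24, and Cobl on the other side was highest with the empty vector (6.49, against 6.14 to 6.29).

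Igf2r, Cdkn1c and the dim genes H19 and Phlda2 did not separate the sea urchin arrays from the others. Igf2r, the receptor that clears IGF2, was at 5.79 with the empty vector, 5.74 with mouse PRDM14, 5.74 with sea urchin PRDM14 and 5.81 with both sea urchin proteins, a range of 1.06-fold. The Airn RNA that silences the paternal Igf2r copy in other tissues was dim, from 3.44 to 3.55. Cdkn1c, a cyclin-dependent kinase inhibitor gene, was at 5.04, 4.87, 5.07 and 4.92 in the same order, close to the filter value on every array. Phlda2, a pleckstrin homology domain gene that restrains placental growth, was at 3.31, 3.33, 3.25 and 3.46.

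H19 has no probe set of its own here. The probe set shared by H19, a long noncoding RNA gene, and Mir675, the microRNA processed from it, was dim: 3.60 with the empty vector, 3.53 with mouse PRDM14, 3.52 with sea urchin PRDM14 and 3.65 with both sea urchin proteins. The mature sequences of that microRNA are given with the seed in capitals. Whether the probe set reads these mature forms was not tested.
mmu-miR-675-5p: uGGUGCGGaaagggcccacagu
mmu-miR-675-3p: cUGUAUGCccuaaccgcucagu

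Igf2, the growth factor gene that shares its enhancers with H19, was also below the filter on all arrays. It was at 4.51 with the empty vector, 4.45 with mouse PRDM14, 4.14 with sea urchin PRDM14 and 4.23 with both sea urchin proteins. Both sea urchin arrays were the lower ones, as for 16.6% of all compared genes. In the Cdkn1c and Phlda2 cluster on chromosome 7, Kcnq1ot1 was dim (3.97 to 4.11), Kcnq1 lay between 4.98 and 5.10 and Slc22a18 between 5.33 and 5.44.

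Counted by size, 1 of the 8 compared genes was at least 1.5-fold lower with mouse PRDM14 than with the empty vector (Peg10), where 0.457% of all compared genes differed that far in either direction. With sea urchin PRDM14 it was also 1 of 8 (Plagl1), against 0.498% of all, and with both sea urchin proteins 1 of 8 (Plagl1), against 0.822%. The array of both sea urchin proteins against the one with sea urchin PRDM14 alone gave 0 of 8, against 0.515%. Relative to mouse PRDM14, Plagl1 was past the line with sea urchin PRDM14 (1 of 8, against 0.515%) and with both sea urchin proteins (1 of 8, against 0.739%). These comparisons share arrays, so the Plagl1 calls are not separate observations. At 2-fold, 0 of the 8 genes passed in any of the 6 comparisons. The shares of all compared genes past 2-fold were 0.0830% for mouse PRDM14, 0.0332% for sea urchin PRDM14 and 0.208% for both sea urchin proteins, each against the empty vector. They were 0.183% for both sea urchin proteins against sea urchin PRDM14 alone, and 0.0581% and 0.183% for the sea urchin arrays against mouse PRDM14.

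**Figure D2:**
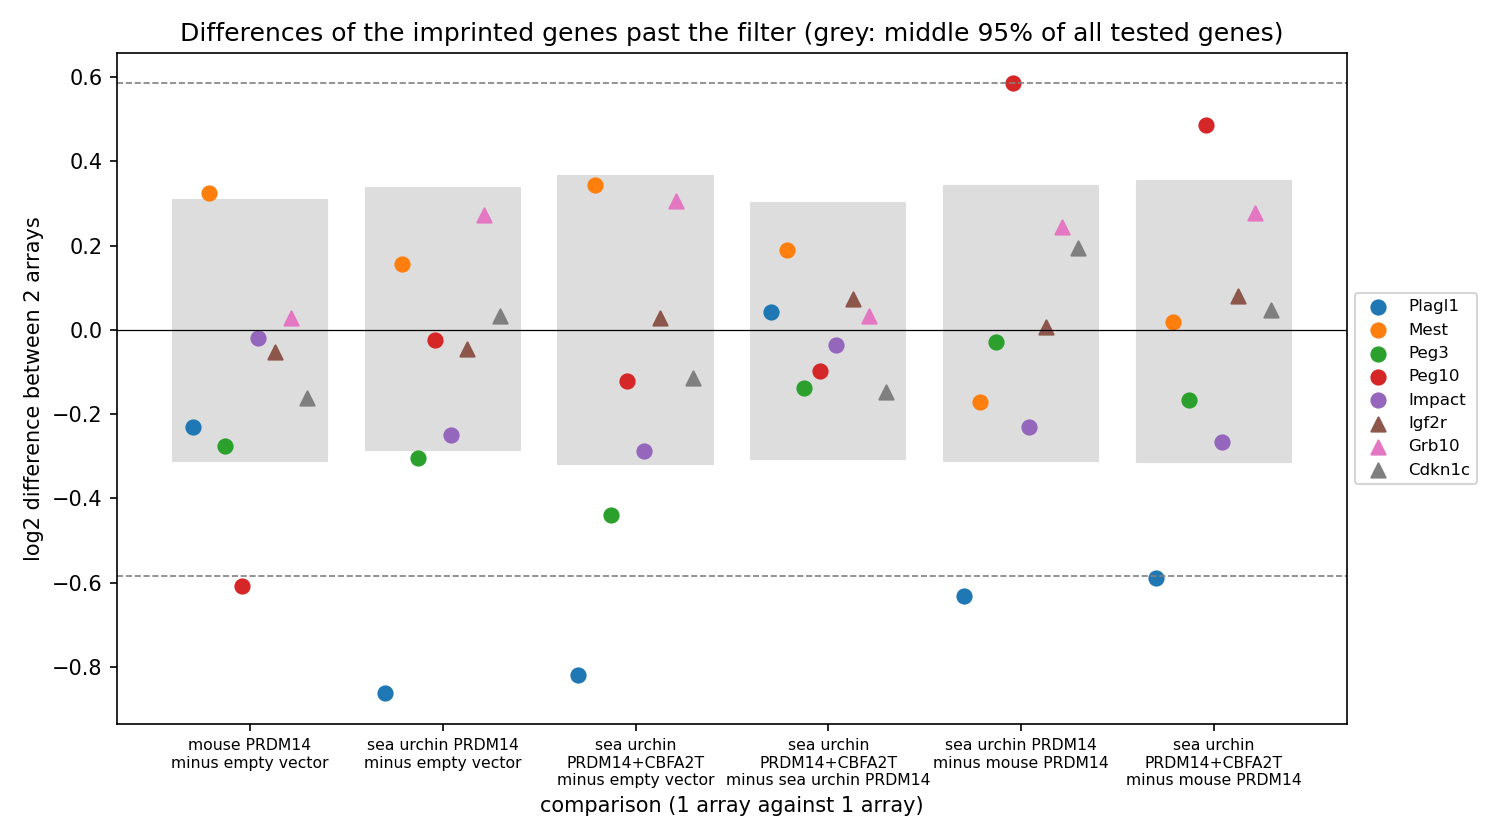
Log2 difference between 2 arrays (y axis) for the 8 genes past the filter in the 6 comparisons (x axis), with circles for paternally and triangles for maternally expressed genes. Grey boxes span the middle 95% of the 12042 compared genes and dashed lines mark 1.5-fold. Plagl1 lies below the lower line in 4 comparisons and Peg10 in 1, and the maternally expressed genes stay inside the boxes.

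By parental class, most of the paternally expressed genes were below the empty vector, though not all by a visible amount. With mouse PRDM14, 4 of 5 were below 0, with a median of -0.23, where 51.5% of all compared genes were below 0 and their median was -0.005. That median of -0.23 is the value of Plagl1, and it was -0.077 with the mean of a gene's probe sets. With sea urchin PRDM14, 4 of 5 were below 0 (median -0.25), against 48.4% of all compared genes. With both sea urchin proteins, again 4 of 5 were below 0 (median -0.29), against 48.4%. Mest was the exception each time. Impact, at -0.02 with mouse PRDM14, and Peg10, at -0.02 with sea urchin PRDM14, were barely below 0. In those comparisons 88.4% and 85.8% of compared genes were at least as far from the empty vector. All 3 comparisons use the same empty vector array, on which Plagl1, Peg3, Peg10 and Impact each had their highest value, so the counts are not independent.

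Without the empty vector array the medians of the paternally expressed genes were closer to 0. Against mouse PRDM14, 4 of 5 paternally expressed genes were below 0 with sea urchin PRDM14 (median -0.17, with 46.5% of all compared genes below 0). With both sea urchin proteins it was 3 of 5 (median -0.17, against 47.0%). Between the sea urchin arrays, 3 of 5 were below 0 (median -0.04, against 50.0%). The 3 compared maternally expressed genes had medians of -0.05, 0.03 and 0.03 against the empty vector, for mouse PRDM14, sea urchin PRDM14 and both sea urchin proteins. Against mouse PRDM14 all 3 were above 0 on both sea urchin arrays, with medians of 0.19 and 0.08, and between the sea urchin arrays 2 of 3 were (0.03). Leaving the filter out moved the 0.19 to 0.0995, and a filter at the 75th percentile, which keeps Igf2r alone of the class, moved it to 0.0057. Under the same filters the 0.03 of sea urchin PRDM14 relative to the empty vector turned negative, at -0.0073 and -0.046. Igf2r was 0.0057 above mouse PRDM14 with sea urchin PRDM14, and -0.0042 under cyclic loess normalization, so all 3 were not above 0 there.

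Both sea urchin arrays lay on the same side of both other arrays for 4 of the 8 genes, below for Plagl1, Peg3 and Impact and above for Grb10. This way of counting was added after the values were seen, and 37.3% of all compared genes show such an arrangement. For Peg3 the gap was 0.03, which 25.9% of compared genes reached.

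Other imprinted genes outside Dlk1-Dio3 that passed the filter stayed within 1.35-fold between any pair of arrays. A list of 54 further genes had 47 with a probe set of their own, of which 23 passed the filter. Of the 23, 0 differed by 1.5-fold in any of the 6 comparisons. In single comparisons 0.457% to 0.822% of all compared genes differed that far, so a count of 0 is near that share. Against the empty vector the 12 other paternally expressed genes had medians of 0.11, 0.01 and 0.02. These were for mouse PRDM14, sea urchin PRDM14 and both sea urchin proteins. Of all compared genes 51.5%, 48.4% and 48.4% were below 0 in that order, and of the 12 genes 8, 6 and 8 were above 0. Mkrn3, a ring finger gene, differed most among them, at 4.95 with the empty vector, 4.95 with mouse PRDM14, 5.30 with sea urchin PRDM14 and 5.16 with both sea urchin proteins. The 11 other maternally expressed genes had medians of -0.04, -0.0005 and 0.02. Nap1l4, a histone chaperone gene next to Phlda2, differed most, at 6.30, 6.41, 6.74 and 6.54 in the same order of arrays. Of the 19 measured genes that share an imprinted cluster with one of the 10, 8 passed the filter, and their ranges over the arrays were 1.04 to 1.35-fold.

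**Figure D3:**
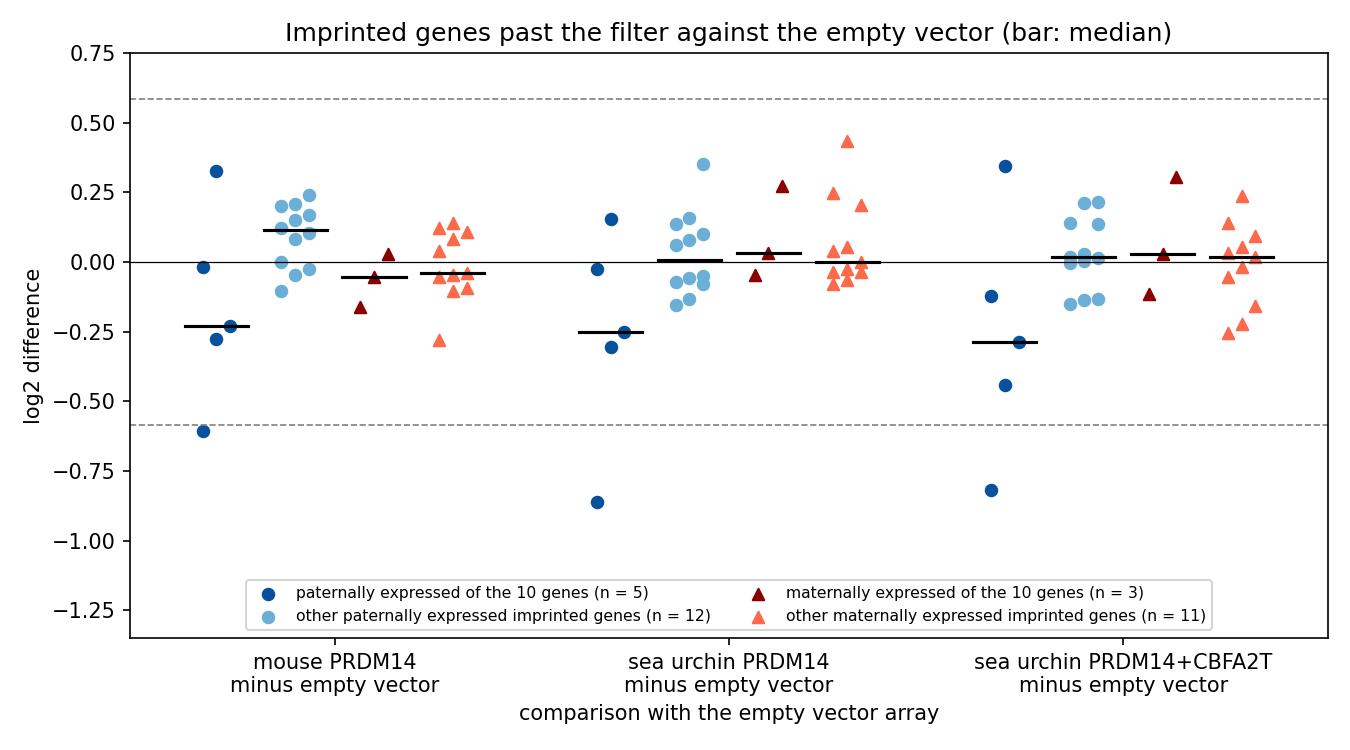
Log2 difference from the empty vector (y axis) in 3 comparisons (x axis) for imprinted genes past the filter, 1 point per gene, by parental class, with bars for medians and dashed lines at 1.5-fold. The 5 paternally expressed genes of the 10 have medians of -0.23 to -0.29, and the 12 others medians of 0.01 to 0.11.

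The machinery that sets or keeps imprints was measured in full, with 17 of 17 genes past the filter. In the comparisons with the empty vector 0 of 17 differed by 1.5-fold, where 0.457% to 0.822% of all compared genes did. A count of 0 is near those shares. The list medians were -0.05, 0.02 and -0.002 for mouse PRDM14, sea urchin PRDM14 and both sea urchin proteins. Dnmt3b, a de novo DNA methyltransferase gene, was at 6.42 with the empty vector, 5.96 with mouse PRDM14, 6.56 with sea urchin PRDM14 and 6.34 with both sea urchin proteins. Like Peg10 it was lowest with mouse PRDM14. It was past 1.5-fold between sea urchin and mouse PRDM14 (0.595), the 1 such gene of the list in any comparison. In that comparison 0.515% of all compared genes were past 1.5-fold. Among 17 compared partners of the 10 genes in growth factor and cell cycle control, 0 differed by 1.5-fold, again near the share of all. M6pr, the other mannose 6-phosphate receptor gene beside Igf2r, came closest, at 6.56 with the empty vector, 6.84 with mouse PRDM14, 7.13 with sea urchin PRDM14 and 6.91 with both sea urchin proteins.

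Genes with a pattern like that of Plagl1 or Peg10 were sought by the distance between log2 values centred on each gene's mean, over the 4 arrays and 10723 genes. Nearest to Plagl1 was Cmtm7 (distance 0.16), a membrane protein gene, at 7.28 with the empty vector, 6.98 with mouse PRDM14, 6.56 with sea urchin PRDM14 and 6.55 with both sea urchin proteins. B4galt6, a glycosphingolipid enzyme gene (0.19), and Mme, the neprilysin gene (0.22), followed. Mme reached the filter value on the empty vector array only. Nearest to Peg10 was Scarb2 (0.05), a lysosomal membrane protein gene, at 5.04, 4.44, 5.02 and 4.98 in the same order. Its mouse PRDM14 value was below the filter. Tmem47 (0.11) and Cd63 (0.12) came next. The measure rests on 4 arrays.

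**Figure D4:**
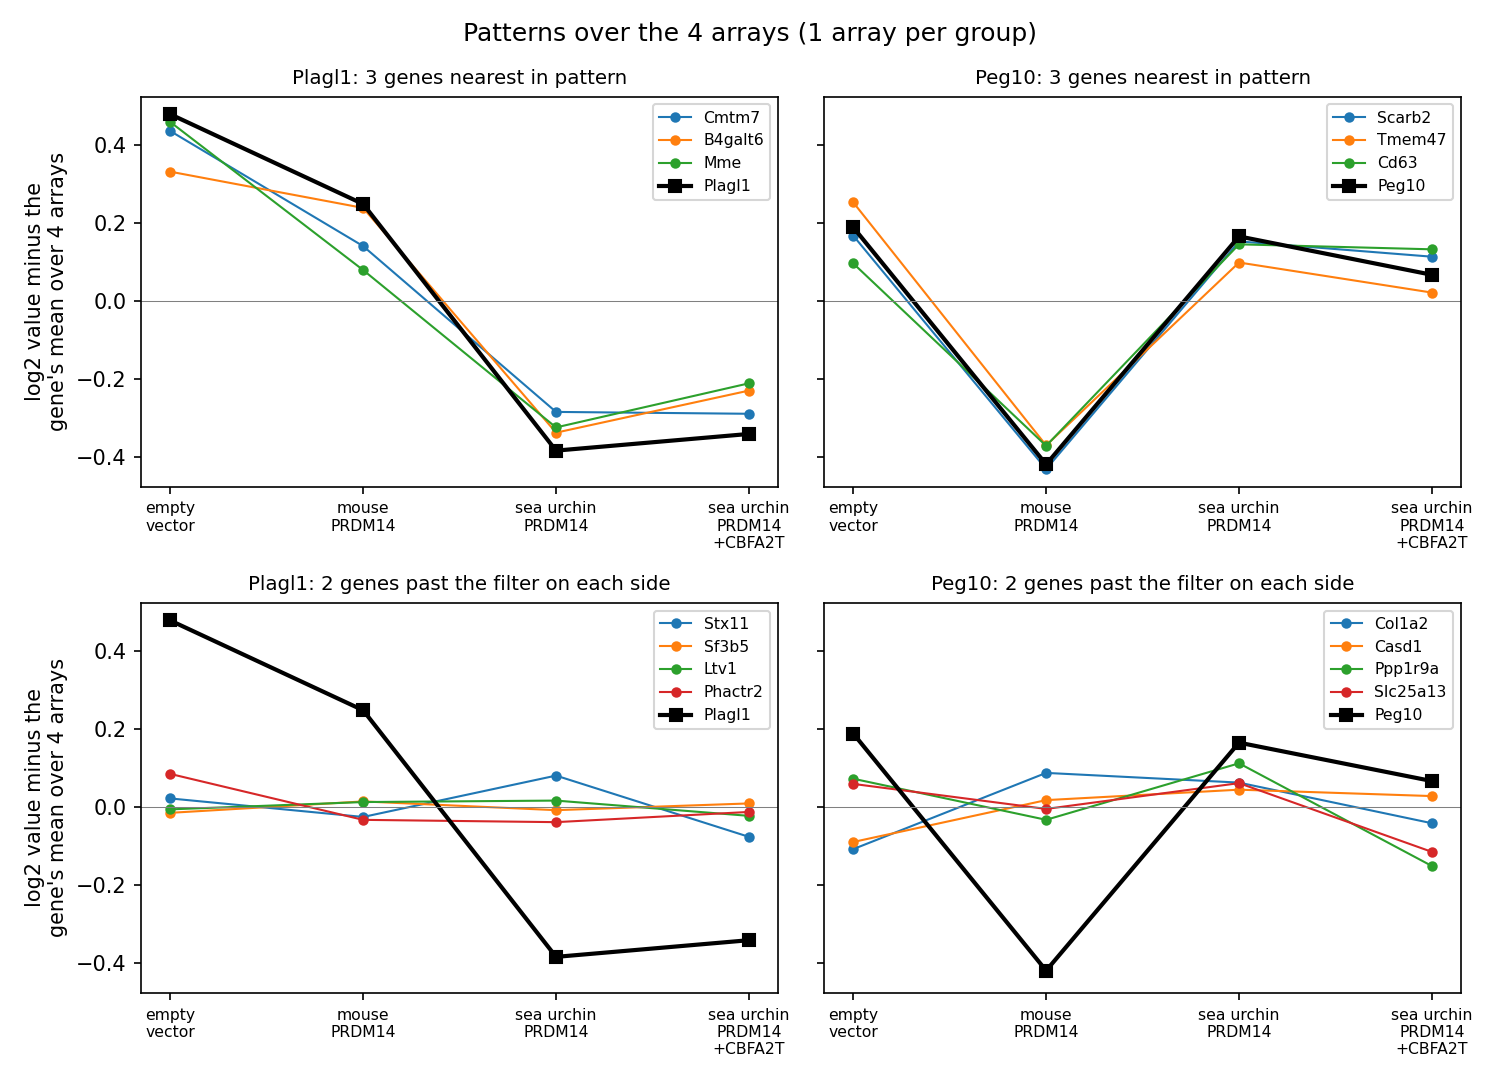
Log2 value minus the gene's mean over the 4 arrays (y axis) on each array (x axis), with Plagl1 on the left and Peg10 on the right in black. The upper panels show the 3 genes nearest in pattern and the lower panels the compared genes on either side in the genome, and lines join the points of 1 gene. Sf3b5 and Ltv1 beside Plagl1 lie near 0 on all arrays while Plagl1 spans 1.82-fold.

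Markers of other cell types were set beside these values. The fibroblast markers had 23 compared genes at medians of -0.02 with mouse PRDM14, -0.01 with sea urchin PRDM14 and 0.0007 with both sea urchin proteins against the empty vector. Fn1, the fibronectin gene, differed most, at 7.79, 8.09, 7.86 and 7.30 in the order empty vector, mouse PRDM14, sea urchin PRDM14 and both sea urchin proteins. Primitive endoderm markers (10 of 14 past the filter) had a mean level between 5.77 and 5.87. It was 5.771 with mouse PRDM14, the array on which Peg10 was lowest. It was nearly the same, 5.774, with both sea urchin proteins, where Peg10 was at 7.35. Against the empty vector 7 of the 10 were below 0 with mouse PRDM14 (median -0.14), where 51.5% of all compared genes were. With both sea urchin proteins 8 of the 10 were below 0 (median -0.08), against 48.4%. Sparc, which differed most, was highest with mouse PRDM14 (7.05, against 6.58 to 6.68). The part of these cells in the Peg10 difference was not tested. Trophoblast markers (8 of 11 measured past the filter) had a mean level between 5.62 and 5.68, and Eomes ranged from 4.73 to 4.99. RMA values carry no detection call, so no marker can be called absent.

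Embryonic stem cell markers had a mean level of 6.76 with the empty vector, 6.86 with mouse PRDM14, 6.67 with sea urchin PRDM14 and 6.69 with both sea urchin proteins. On each sea urchin array 10 of 12 were below the empty vector, with medians of -0.13 and -0.07, against 48.4% of all compared genes. With mouse PRDM14 2 of 12 were (median 0.11), against 51.5%. The markers did not all go one way: Tdgf1 and Utf1 (7.30) were highest with sea urchin PRDM14, and Nanog (9.28) and Fbxo15 with both sea urchin proteins. Tfcp2l1, a naive pluripotency transcription factor gene, was at 7.35, 7.60, 6.93 and 7.21, Fbxo15 at 5.29, 5.29, 4.93 and 5.999, and Tdgf1 at 8.25, 8.42, 8.74 and 7.58 in that order. The part of cell state in the differences of the imprinted genes was not tested.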

How the data were processed

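Per the submitters' processing notes the tool was RMA, and the deposited values are on the log2 scale. RMA equalises the distributions of the arrays, so a shift shared by most genes would not show. Version and build: not given in the sources used here. Of 41345 probe sets, 23521 were annotated to 1 gene, 1814 to several and 16010 to none, and the RefSeq table (GRCm38.p6) held the Entrez identifier of 23328 of the 23521. A gene's value came from its probe set with the highest mean. Genes whose highest array reached the median of all named values (4.84) were compared by size, at 1.5-fold and 2-fold, with no statistical test. Alternatives tried were the 2-fold line, leaving the filter out, a filter at the 75th percentile (5.65), cyclic loess and the mean of a gene's probe sets. The genes and lists were chosen with earlier results of these data known. Genes outside the 10 were named when they belonged to the same imprinted cluster, when they passed 1.5-fold (at most 4 a list) or else differed most within a list, when they were among the 3 nearest in pattern to a gene spanning 1.5-fold, or, by a rule added later, when they were the 2 nearest compared genes on each side. The search for like patterns skipped symbols of predicted genes, small RNAs and large receptor families. Mir335, Prdm14, Mir483 and Igf2os were named outside these rules. The collapsing and counting steps were tested on simulated data. Tools were limma 3.58.1 in R 4.3.3, and numpy 2.4.6, pandas 2.3.3 and matplotlib 3.10.9 in Python 3.11.15.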

Additional observations from a re-analysis of the deposited data

How the results depend on the processing

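With 1 array per group nothing could be left out, and the limits are those of single arrays. Under cyclic loess, and with no filter, each count past 1.5-fold was the same and each class median moved by less than the median absolute difference of all compared genes. No difference of a gene among the 10 moved by more than 0.028 under cyclic loess. At a 2-fold threshold the count fell from 1 to 0 in each of the 5 comparisons that had a gene past 1.5-fold. With the mean of a gene's probe sets it fell from 1 to 0 in the 4 comparisons in which Plagl1 was past the line. The median of the paternally expressed genes with mouse PRDM14 against the empty vector then became -0.077. This follows from averaging in the dim Plagl1 probe set. With the 75th percentile filter only Igf2r remained of the maternally expressed genes, and their median for sea urchin against mouse PRDM14 became 0.0057. Dim genes such as H19, Phlda2 and Igf2 are close to background, where array differences can be understated.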

Other observations

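Around Igf2, the microRNA gene Mir483 that it hosts had a probe set well past the filter, at 7.89 with the empty vector, 7.58 with mouse PRDM14, 7.66 with sea urchin PRDM14 and 7.48 with both sea urchin proteins, while the Igf2 probe set itself was below the filter on all arrays. The antisense gene Igf2os lay between 4.94 and 5.09. Next to Igf2r, Pnldc1, a nuclease gene, was at 4.95 with the empty vector. It was at 4.38 with mouse PRDM14, 4.54 with sea urchin PRDM14 and 4.47 with both sea urchin proteins, all below the filter (4.84). Pnldc1 thus passed the filter through the empty vector array alone. Igf2r itself spanned 1.06-fold. Sec61g, a subunit gene of the protein translocation channel, was the next compared gene after Cobl on that side of Grb10. How far it lies from Grb10 was not measured. Sec61g was at 5.42 with the empty vector, 5.19 with mouse PRDM14, 5.94 with sea urchin PRDM14 and 5.65 with both sea urchin proteins. Its span of 1.69-fold was larger than that of Grb10 (1.24-fold). Like Grb10 it was higher on both sea urchin arrays, as were 20.6% of all compared genes. Ddc and Cobl, the compared genes directly beside Grb10, were not.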
